A study of Mus musculus with 6 samples.

Results

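The interleukin-1 family cytokine genes Il1a, Il1b, Il1f6, Il1rn and Il18 were followed by RNA sequencing in RAW264.7, a macrophage-like cell line from the mouse. The members were chosen by gene name from a table of 10780 protein-coding genes, and all 5 listed names were found there and passed the expression filter. The groups were cells given lipopolysaccharide (LPS, a component of the bacterial outer membrane) at 10 ng/ml together with Sal-B at 50 μmol/L, cells given LPS at 10 ng/ml without Sal-B, and untreated control cells, with 2 libraries in each group. The libraries were numbered replicate 2 and replicate 3, and none of the groups had Sal-B without LPS. The labels give no treatment time, do not spell out Sal-B and do not say whether the 2 libraries of a group came from separate cultures, so a p-value here reflects the scatter of the libraries, which may be technical.

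Interleukin-1 cytokines are early messengers of inflammation. Il1a encodes interleukin-1 alpha, which is active as a full-length protein and acts as an alarm when cells die, and Il1b encodes interleukin-1 beta, which macrophages store as an inactive precursor until caspase-1, in an inflammasome, cuts it. Both bind the same receptor, and Il1rn encodes the receptor antagonist that occupies this receptor without starting a signal. Il1f6 encodes interleukin-36 alpha, an agonist of a related receptor known mainly from skin and other epithelia. Il18 encodes interleukin-18, a precursor that is also cut by caspase-1, is kept in resting macrophages and drives interferon-gamma production in lymphocytes. Macrophages switch on the interleukin-1 genes through Toll-like receptors and NF-kB, the latent transcription factor that these receptors release.

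Levels are in FPKM, a fragment count divided by transcript length and library size, which allows levels to be compared between genes of different length. The FPKM total per library lay between 309767 and 374371, and 8639 to 9847 genes reached 1 FPKM. The 9 macrophage markers analysed here, among them Cd68, Lyz2 and Csf1r, summed to 942 and 957 FPKM with LPS plus Sal-B, 2022 FPKM in each LPS library and 2412 and 1856 FPKM in control. No marker of T cells, epithelial cells, fibroblasts or neutrophils was among the genes analysed here, and of the B cell markers only Cd79b was, at 0.305 to 1.43 FPKM. The replicates of a group differed by an SD of 0.19 with LPS plus Sal-B, 0.27 with LPS and 0.44 in control on the log2(FPKM + 1) scale over the 10014 genes tested, so the control pair was the least alike.

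The genes lie in 3 places of the GRCm38 genome. Il1a (ENSMUSG00000027399.1, chr2:129299610-129309972, minus strand) and Il1b (ENSMUSG00000027398.13, chr2:129364570-129371139, minus strand) are neighbours 54.6 kb apart. Il1f6 (ENSMUSG00000026984.4, chr2:24215418-24225702, plus strand) and Il1rn (ENSMUSG00000026981.15, chr2:24336853-24351494, plus strand) lie 111 kb from each other and about 105 Mb from Il1a. Il18 (ENSMUSG00000039217.13, chr9:50554827-50581840, plus strand) stands alone on another chromosome. Genes on the opposite strand overlap Il1a (Gm14023), Il1b (Il1bos) and Il18 (Bco2 and Tex12) in GENCODE M21, and the labels name a stranded kit but not whether strand was used in counting, so reads of these pairs may not have been kept apart.

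The 250 bases before the RefSeq transcription start (build GRCm38.p6) are shown for Il1a and Il1b, which moved together. Beside them are the first start of Il1rn and the start of Il18, which rose less with LPS. Windows were found for 4 of the 5 members. Capitals mark matches to a TATA box (TATAAA, gene strand), AP-1 (TGANTCA, both strands), PU.1 (GAGGAA, both strands), C/EBP (TTGCNNAA, both strands) and the degenerate kappaB consensus of NF-kB (both strands). No match overlaps another.
Il1a, chr2:129309973-129310222, minus strand: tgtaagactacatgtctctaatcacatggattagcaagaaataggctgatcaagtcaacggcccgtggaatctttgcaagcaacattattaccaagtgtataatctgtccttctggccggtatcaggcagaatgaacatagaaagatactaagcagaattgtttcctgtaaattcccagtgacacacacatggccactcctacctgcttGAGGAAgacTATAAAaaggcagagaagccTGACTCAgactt
Il1b, chr2:129371140-129371389, minus strand: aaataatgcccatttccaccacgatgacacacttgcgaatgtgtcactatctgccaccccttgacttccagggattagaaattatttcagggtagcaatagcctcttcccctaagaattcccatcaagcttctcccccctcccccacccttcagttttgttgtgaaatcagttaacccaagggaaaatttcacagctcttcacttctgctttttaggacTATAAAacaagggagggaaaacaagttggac
Il1rn, chr2:24336610-24336859, plus strand: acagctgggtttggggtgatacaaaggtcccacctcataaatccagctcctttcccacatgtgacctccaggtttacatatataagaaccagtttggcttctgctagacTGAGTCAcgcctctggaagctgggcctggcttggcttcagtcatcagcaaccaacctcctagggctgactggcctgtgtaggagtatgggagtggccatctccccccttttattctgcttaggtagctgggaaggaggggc
Il18, chr9:50554450-50554699, plus strand: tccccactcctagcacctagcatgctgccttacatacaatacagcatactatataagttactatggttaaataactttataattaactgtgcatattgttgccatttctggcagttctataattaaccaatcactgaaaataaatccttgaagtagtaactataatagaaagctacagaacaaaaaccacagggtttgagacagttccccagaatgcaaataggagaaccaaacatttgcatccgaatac

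TATAAA began 32 bases before the start of Il1a and 31 bases before that of Il1b, and it was found in no window of Il1rn or Il18. Among 32841 RefSeq windows of the same length 7.59% held it. The window of Il1a also held TGACTCA 12 bases and GAGGAA 41 bases before the start, and the first window of Il1rn held TGAGTCA 141 bases before the start. AP-1 matches occurred in 6.75% of all windows and GAGGAA in 23.3%. The kappaB consensus, present in 7.25% of windows, and TTGCNNAA, present in 9.57%, had no match in these windows, which says only that these letters are not there. Il1rn has 2 further, overlapping start windows inside the gene, neither of which held any of these motifs, and the FPKM of Il1rn is a gene value that does not separate its starts.

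LPS raised every member, from 1.78-fold for Il18 to 327-fold for Il1a among those seen in both control libraries. Il1a, Il1b and Il1f6, the agonists, were abundant with LPS and near or at 0 in control cells. Il1rn was low and uneven in control, and Il18, already well expressed, rose least. As these are bulk values, more cells expressing a gene and more RNA per cell cannot be told apart.

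Il1a stood at 205 and 201 FPKM in the LPS libraries, against 0.654 and 0.587 FPKM in control. The pairs were far apart, with means of 203 ± 3.08 FPKM with LPS and 0.621 ± 0.0473 FPKM in control (SD, n = 2 each), a ratio of 327. The log2 fold change was 6.98 ± 0.08 (SE; limma, adjusted p = 2.72e-06). All log2 fold changes below are on the log2(FPKM + 1) scale, which understates changes of genes near 0. Values given as -fold are ratios of mean FPKM.

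Il1b stood at 145 and 146 FPKM with LPS, against 0.0596 and 0 FPKM in control. Its control libraries were at the bottom of the table while its LPS mean lay at percentile 97.3 of the genes tested. The log2 fold change was 7.16 ± 0.09 (limma, adjusted p = 3.28e-06), the 7th highest of the 10014 genes tested, with Il1a in the 8th place.

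Il1f6 stood at 14.4 and 17.3 FPKM with LPS and was listed at 0 in both control libraries. No fold is given against a group at 0. The difference passed the test (limma, adjusted p = 5.63e-05).

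Il1rn, the antagonist, stood at 59.1 and 57.1 FPKM with LPS, against 6.97 and 1.32 FPKM in control. Control replicate 2 was well above control replicate 3, but both lay below the LPS pair. The log2 fold change was 3.78 ± 0.65 (limma, adjusted p = 0.00439), and it was 4.67 without control replicate 2 and 2.89 without control replicate 3. In the control pair 35 of the 6444 genes with at least 5 FPKM differed more between replicates than Il1rn did. Il1rn itself averaged 4.15 FPKM in control, so it is set here against genes of higher level.

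Il18 stood at 45.3 and 47.1 FPKM with LPS, against 23.4 and 28.5 FPKM in control. The pairs did not overlap, and the means were 46.2 ± 1.28 and 26.0 ± 3.55 FPKM (SD, n = 2 each), a ratio of 1.78. The log2 fold change was 0.82 ± 0.13 (limma, adjusted p = 0.00325), and the adjusted p was 0.0950 when each treated pair was averaged to 1 sample.

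Across all genes tested 63.1% were called with LPS against control, 14.2% higher and 48.9% lower, beside 5 of 5 members higher. The median log2 fold change was 4.07 over the members and −0.40 over all genes, but the middle member is Il1f6, listed at 0 in control, whose fitted value depends on the pseudocount. Scaling the libraries to the same median turned the split of all genes into 2898 higher and 2649 lower (1421 and 4898 as deposited), and the 5 members were called higher under that scaling too.

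**Figure D1:**
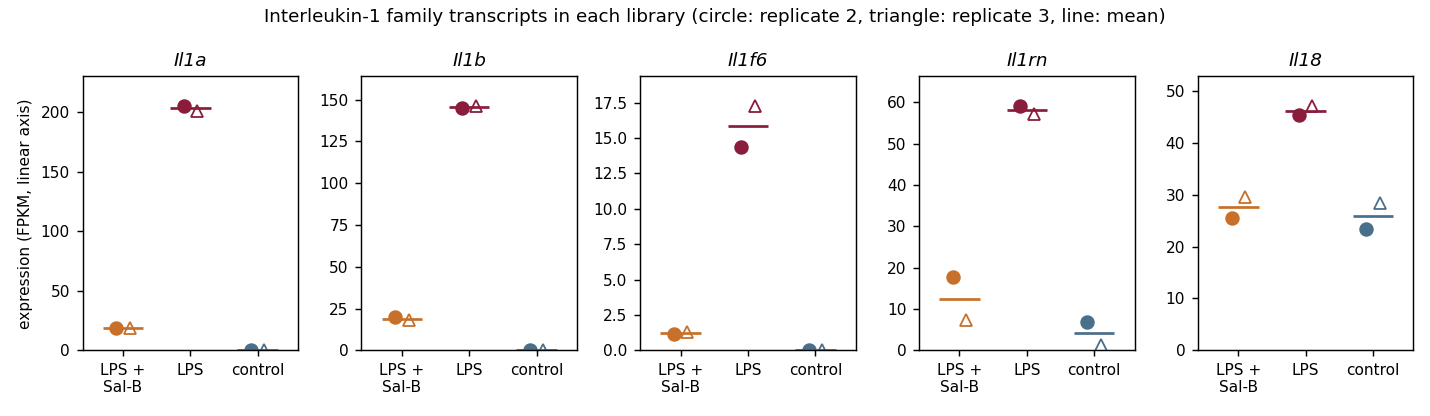
Expression of each member in FPKM on a linear axis (scale differs between panels) for the 2 libraries of each group, with the mean as a line. Il1a, Il1b and Il1f6 are near 0 in control, high with LPS and 7.67- to 13.0-fold lower with LPS plus Sal-B, while Il18 with LPS plus Sal-B overlaps control and the 2 Il1rn libraries with LPS plus Sal-B lie far apart, at 17.7 and 7.27 FPKM.

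With Sal-B added to LPS, every member was lower than with LPS alone. In mean FPKM the agonists were 7.67- to 13.0-fold lower, Il1rn 4.65-fold and Il18 1.67-fold. The Il1rn libraries with LPS plus Sal-B lay far apart, at 17.7 and 7.27 FPKM. Without the higher of these the log2 fold change of Il1rn was −2.84, near the −2.88 of Il1b. The agonists and Il1rn were therefore not clearly apart. The agonists stayed above control, while Il18 returned to a level that overlapped control.

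Il1a stood at 18.9 and 19.1 FPKM with LPS plus Sal-B, against 205 and 201 FPKM with LPS. The mean of 19.0 ± 0.136 FPKM with LPS plus Sal-B was 10.7-fold below that with LPS. The log2 fold change was −3.35 ± 0.08 (limma, adjusted p = 0.000260), the 5th lowest of all genes tested. Il1b stood at 19.8 and 18.2 FPKM with LPS plus Sal-B, against 145 and 146 FPKM with LPS. The mean of Il1b was 7.67-fold lower with LPS plus Sal-B (log2 fold change −2.88 ± 0.09, limma, adjusted p = 0.000499). The libraries of Il1a and Il1b overlapped with LPS plus Sal-B, whereas Il1a was the higher of them in each LPS library.

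Il1f6 stood at 1.13 and 1.31 FPKM with LPS plus Sal-B, against 14.4 and 17.3 FPKM with LPS, and was 13.0-fold lower. This was the widest ratio of mean FPKM of the 5 members (log2 fold change −2.92 ± 0.12, limma, adjusted p = 0.000843). On the log2(FPKM + 1) scale Il1a fell more (−3.35).

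Il1rn stood at 17.7 and 7.27 FPKM with LPS plus Sal-B, against 59.1 and 57.1 FPKM with LPS. Both libraries lay below the LPS pair, but replicate 2 was well above replicate 3, and in that pair only 21 of 4669 genes with at least 5 FPKM differed more. The log2 fold change was −2.25 ± 0.65 (limma, adjusted p = 0.0392), and it was −2.84 without LPS plus Sal-B replicate 2 (adjusted p = 0.0707) and −1.66 without LPS plus Sal-B replicate 3 (adjusted p = 0.174). The call was also lost without LPS replicate 2 (adjusted p = 0.147), without LPS replicate 3 (adjusted p = 0.139), with a pseudocount of 0.1 (0.0612) and under both scalings (0.0506 and 0.0805).

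Il18 stood at 25.6 and 29.6 FPKM with LPS plus Sal-B, against 45.3 and 47.1 FPKM with LPS. The pairs were apart, with a log2 fold change of −0.73 ± 0.13 (limma, adjusted p = 0.00926). The adjusted p was 0.0802 without LPS plus Sal-B replicate 2, 0.0571 without LPS replicate 2, 0.0631 without LPS replicate 3 and 0.102 after quantile normalization.

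Of all genes tested 42.3% were called in this comparison, 31.8% lower and 10.5% higher with LPS plus Sal-B, beside 5 of 5 members lower. The median log2 fold change was −2.88 over the members and −0.22 over all genes, and the difference from that median was −0.50 for Il18 and −3.12 for Il1a. At the same median of libraries 1766 of all genes were higher and 2020 lower (1054 and 3184 as deposited), and 4 of the 5 members were called lower. When each treated pair was averaged to 1 sample, limma called 0 of 10014 genes (1477 at an unadjusted p under 0.05) and the adjusted p of the members ran from 0.320 to 0.356, with the same directions. The macrophage markers moved in the same direction, with 7 of 9 lower and a median log2 fold change of −1.04, and their part in the result was not tested.

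Set against control, LPS plus Sal-B left Il1a and Il1b well above their resting level, and Il1f6 above 0 at a low level. Il1a was 30.6-fold above control (log2 fold change 3.63 ± 0.08, limma, adjusted p = 4.02e-05), and Il1b had a log2 fold change of 4.28 ± 0.09 (limma, adjusted p = 4.02e-05). Il1f6, at 1.13 and 1.31 FPKM against 0 in both control libraries, passed the test as well (limma, adjusted p = 0.000561). Il1rn stood at 17.7 and 7.27 FPKM against 6.97 and 1.32 FPKM in control, pairs that nearly touched (log2 fold change 1.53 ± 0.65, limma, adjusted p = 0.0781). Without control replicate 2 the log2 fold change of Il1rn was 2.42, and with the replicate number as a block its adjusted p was 0.0216 (limma). Il18 stood at 25.6 and 29.6 FPKM against 23.4 and 28.5 FPKM in control, overlapping ranges with a log2 fold change of 0.09 ± 0.13 (limma, adjusted p = 0.555). Because the median gene was 0.63 lower in this comparison, scaling to the same median gave Il18 a log2 fold change of 0.82 (adjusted p = 0.00309) and Il1rn one of 2.14 (adjusted p = 0.0268). Of all genes 72.8% were called, 14% higher and 58.8% lower, beside 3 members higher and 0 lower. All 5 members were called higher at the same median and after quantile normalization. The comparison shares the LPS plus Sal-B libraries with the one above and the control libraries with the first, so the 3 are not independent.

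**Figure D2:**
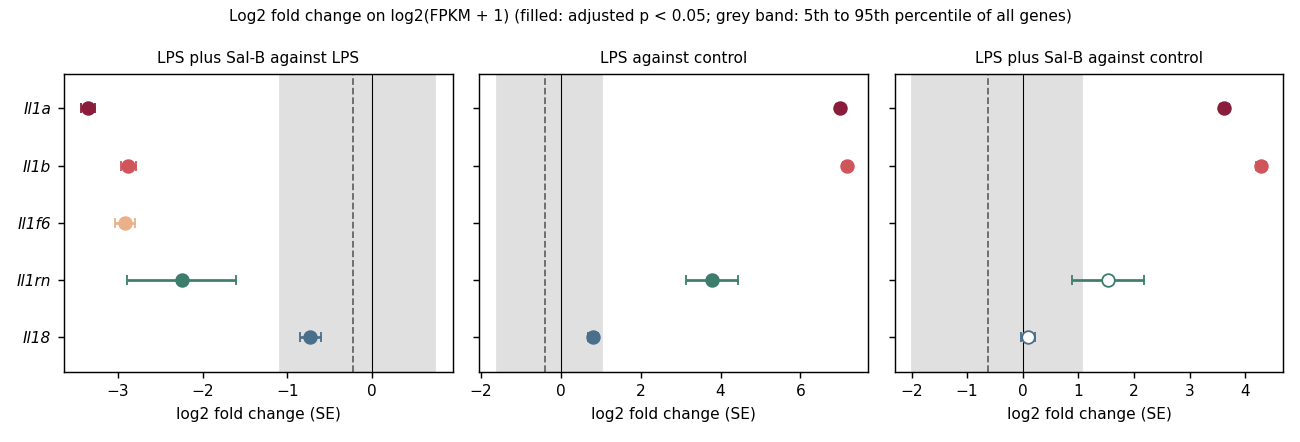
Log2 fold change of each member with its SE in the 3 comparisons, on log2(FPKM + 1). Filled points passed an adjusted p of 0.05, the grey band spans the 5th to 95th percentile of all 10014 genes, the dashed line is their median, and Il1f6 is left out against control, where it was listed at 0. Il1a, Il1b and Il1rn lie outside the band in all 3 panels, and Il18 lies inside it.

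The share of the LPS increase that was left with Sal-B put the members on 1 scale. It was 7.72% for Il1f6, 9.09% for Il1a, 13.0% for Il1b, 15.5% for Il1rn and 8.21% for Il18. Leaving out each library in turn, it ran from 7.07% to 8.49% for Il1f6, 8.997% to 9.19% for Il1a and 12.5% to 13.6% for Il1b. These 3 ranges did not overlap, but each leaves out only 1 library at a time. The propagated SD was 1.28 percentage points for Il1f6, 0.155 for Il1a and 0.769 for Il1b. By that measure the shares of Il1f6 and Il1a were not clearly apart, and their order was not tested. For Il1rn the share ran from 5.78% to 25.2%, and for Il18 from −4.74% to 18.3%, so neither can be placed among the agonists. No group had Sal-B alone, so these shares cannot be tied to the LPS response only.

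The order of the transcript levels changed with treatment. With LPS plus Sal-B it was Il18, then Il1a and Il1b, whose libraries overlapped, then Il1rn and last Il1f6. With LPS it was Il1a, Il1b, Il1rn, Il18 and Il1f6, with no overlap between neighbours. In control it was Il18, Il1rn, Il1a and then Il1b and Il1f6, which were both at or near 0. The 5 genes summed to 83.2 and 75.6 FPKM with LPS plus Sal-B, 469 FPKM in each LPS library and 31.1 and 30.4 FPKM in control.

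The agonists Il1a, Il1b and Il1f6 made up 47.9% and 51.2% of this sum with LPS plus Sal-B, 77.7% and 77.8% with LPS and 2.29% and 1.93% in control. Il18 made up 30.8% and 39.2% with LPS plus Sal-B, 9.66% and 10.1% with LPS and 75.3% and 93.7% in control. Il18 was the larger share in both control libraries, and the agonists were in every library given LPS, with or without Sal-B. With LPS plus Sal-B the agonist share lay between those of LPS and control.

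**Figure D3:**
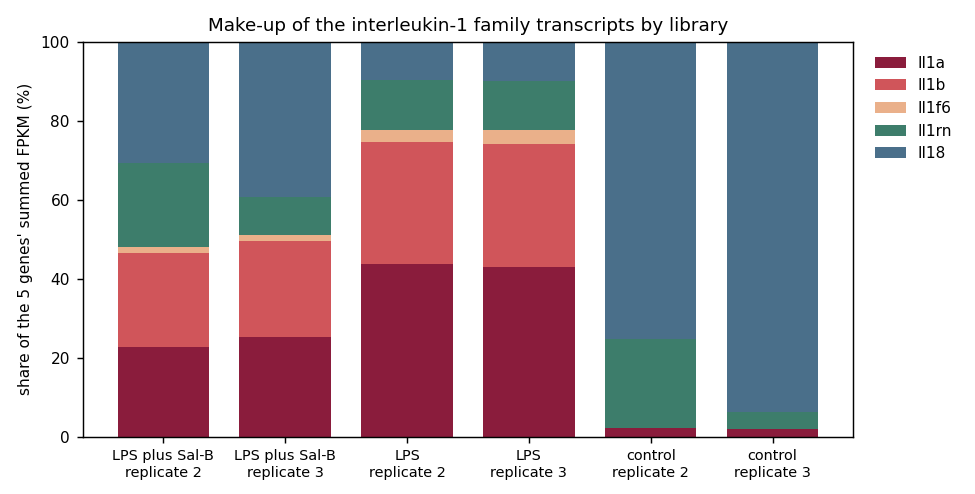
Share of each member in the summed FPKM of the 5 genes, in percent, for each library. Il18 fills 75.3% and 93.7% of the control bars and 9.66% and 10.1% of the LPS bars, and the LPS plus Sal-B bars lie between them.

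Il1rn was set against the sum of Il1a and Il1b, the agonists of the receptor it blocks, as a ratio of FPKM. It was 0.458 and 0.195 with LPS plus Sal-B, 0.169 and 0.164 with LPS and 9.77 and 2.25 in control. The antagonist transcript therefore exceeded the agonist transcripts in both control libraries and was below them in every treated library. Between LPS plus Sal-B and LPS the pairs did not overlap, but LPS plus Sal-B replicate 3 was close to the LPS libraries (difference of log2 ratios 0.84, exact permutation test, two-sided, p = 0.333). Between LPS and control the log2 difference was −4.81, and between LPS plus Sal-B and control −3.97 (exact permutation test, p = 0.333 for each). With 2 libraries against 2, 0.333 is the smallest p that this test can give. Transcript ratios say nothing of how much protein was made or released.

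**Figure D4:**
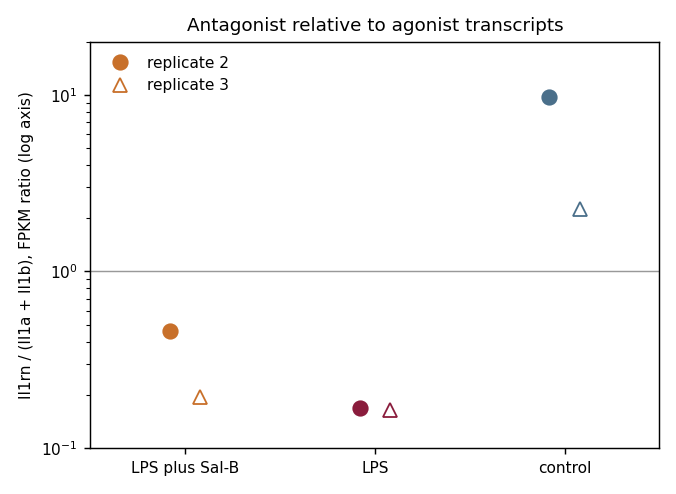
Ratio of Il1rn FPKM to the summed FPKM of Il1a and Il1b in each library, on a log axis, with a line at 1. The control libraries lie above 1, at 9.77 and 2.25, and all treated libraries lie below it, from 0.164 to 0.458.

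AU-rich pentamers (ATTTA), which mark many cytokine transcripts for decay, were counted in the longest annotated 3′ UTR of each member. Il1b had 4 in 459 bases, and 2.73% of tested genes with a 3′ UTR of similar length had at least as many. Il1a had 3 in 1101 bases, a count reached by 32.6% of genes of similar length, and Il1f6 had 2 in 240 bases, a count reached by 9.77%. Il18 had 1 in 334 bases, a count reached by 37.3%, and Il1rn had 0 in 1864 bases, where the median gene of similar length had 3. None held the longer TTATTTATT element, which 8.19% of 9899 tested genes had. Among genes with a 3′ UTR of similar length that share ran from 1.72% for Il1f6 to 9.58% for Il1rn. The densest stretches of 30 bases in Il1b and Il1a are shown with the pentamers in capitals.
Il1b, from base 198 of the 3′ UTR: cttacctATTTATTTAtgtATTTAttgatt
Il1a, from base 580 of the 3′ UTR: ctatgtATTTAtaaatatATTTAtgataat

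The other ligands of the family analysed here, Il1f9 and Il33, were higher with LPS than in control and lower with LPS plus Sal-B than with LPS, at low levels. Both reached 1 FPKM in the LPS libraries only. They passed the filter through the group where they were high, which favours this pattern, so their p-values against that group are descriptive. Il1f9, which encodes interleukin-36 gamma and lies 21.9 kb from Il1f6, stood at 0 and 0.189 FPKM with LPS plus Sal-B, 2.16 and 3.29 FPKM with LPS and 0 in both control libraries. It was lower with LPS plus Sal-B than with LPS (−1.75 ± 0.18, limma, adjusted p = 0.00236) and higher with LPS than in control (limma, adjusted p = 0.000636). With LPS plus Sal-B against control Il1f9 was not called (limma, adjusted p = 0.548), unlike the 3 agonists above, a difference that was not itself tested. Il33, an alarm cytokine kept in the nucleus, stood at 0.249 and 0.377 FPKM with LPS plus Sal-B, 1.92 and 1.76 FPKM with LPS and 0 and 0.0519 FPKM in control. It was lower with LPS plus Sal-B than with LPS (−1.11 ± 0.10, limma, adjusted p = 0.00210), higher with LPS than in control (limma, adjusted p = 0.000349) and higher with LPS plus Sal-B than in control (limma, adjusted p = 0.0240).

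Of 11 receptors and decoys listed, 5 were analysed here, and Il1r1, Il1r2, Il1rl2 and Il18r1 were not among them. With LPS 2 of the 5 rose and 1 fell, where 14.2% of all genes were called higher and 48.9% lower. With LPS plus Sal-B against LPS, 1 was higher and 2 were lower, beside 10.5% and 31.8% of all genes. Both the higher count with LPS and this lower count hold Il18bp, which reached 1 FPKM only in the LPS libraries. Il1rl1, the receptor of interleukin-33, rose to 5.69 and 5.90 FPKM with LPS, against 1.84 and 0.835 FPKM in control (1.57 ± 0.21, limma, adjusted p = 0.00186). It stood at 6.60 and 6.82 FPKM with LPS plus Sal-B (0.18 ± 0.21 against LPS, limma, adjusted p = 0.519). Sigirr, a receptor of the family that restrains interleukin-1 and Toll-like receptor signalling, went the opposite way to the cytokines.

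Sigirr stood at 2.14 and 1.92 FPKM with LPS plus Sal-B, 0.842 and 0.814 FPKM with LPS and 3.15 and 2.96 FPKM in control. It was higher with LPS plus Sal-B than with LPS (0.73 ± 0.10, limma, adjusted p = 0.00465) and lower with LPS than in control (−1.15 ± 0.10, limma, adjusted p = 0.000529). Both calls held under both scalings. Il18bp, a soluble trap for interleukin-18, stood at 0.567 ± 0.00140 FPKM with LPS plus Sal-B, 1.08 ± 0.0811 FPKM with LPS and 0.486 ± 0.107 FPKM in control (SD, n = 2 each). It rose with LPS (0.49 ± 0.10, limma, adjusted p = 0.00909), and with LPS plus Sal-B it was lower than with LPS (−0.41 ± 0.10, limma, adjusted p = 0.0258, but 0.0872 after quantile normalization). Il18bp passed the filter through the LPS libraries, the group where it was high, so both calls are descriptive.

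Il1rap, a co-receptor shared by several cytokines of the family, was lower with LPS plus Sal-B than with LPS (−0.42 ± 0.12, limma, adjusted p = 0.0410), but not under either scaling (adjusted p = 0.0670 and 0.146). Il18rap, the co-receptor of interleukin-18, had a log2 fold change of −0.28 ± 0.21 between LPS plus Sal-B and LPS (limma, adjusted p = 0.315) and of −0.38 ± 0.21 between LPS and control (limma, adjusted p = 0.158).

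Of 21 genes listed for the machinery that processes and releases these cytokines, 19 were analysed here. Pycard and Mefv were not among them. Of 19 such genes tested, 0 rose and 10 fell with LPS plus Sal-B against LPS (median −0.59, all genes −0.22), and 3 rose and 8 fell with LPS against control (median −0.21, all genes −0.40). Over all genes 10.5% were called higher and 31.8% lower with LPS plus Sal-B against LPS, and 14.2% higher and 48.9% lower with LPS against control, and the counts of the lists below are to be read against these shares. At the same median of libraries the split with LPS plus Sal-B against LPS became 0 up and 7 down. The split with LPS against control became 6 up and 5 down. Casp1, the protease that matures interleukin-1 beta and interleukin-18, stood at 19.7 and 21.5 FPKM with LPS plus Sal-B, 57.0 and 51.1 FPKM with LPS and 74.1 and 67.9 FPKM in control. Its fall with LPS plus Sal-B against LPS (−1.35 ± 0.10, limma, adjusted p = 0.00174) held under both scalings.

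Gsdmd, whose cleaved product forms the pore through which they leave the cell, rose to 31.9 and 31.6 FPKM with LPS, against 20.5 and 19.2 FPKM in control (0.65 ± 0.08, limma, adjusted p = 0.00165). It stood at 24.2 and 24.9 FPKM with LPS plus Sal-B (−0.36 ± 0.08 against LPS, limma, adjusted p = 0.0212, but −0.12 with adjusted p = 0.259 at the same median). Nlrp3, the sensor of an inflammasome, stood at 3.59 ± 0.375 FPKM with LPS plus Sal-B, 4.63 ± 0.0871 FPKM with LPS and 9.94 ± 0.124 FPKM in control (SD, n = 2 each).

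Receptor-proximal signalling genes, among them Myd88 and the Irak kinases, showed 1 higher and 7 lower of 18 with LPS plus Sal-B against LPS, a split that became 4 and 6 at the same median (median −0.18, all genes −0.22). The share lower was near the 31.8% of all genes. With LPS against control 3 rose and 7 fell (median −0.27, all genes −0.40), which turned into 8 and 2 at the same median. Irak3, which restrains signalling at these receptors, stood at 3.86 and 3.48 FPKM with LPS plus Sal-B, 6.85 and 8.34 FPKM with LPS and 7.67 and 5.55 FPKM in control. Its fall with LPS plus Sal-B against LPS (−0.88 ± 0.17, limma, adjusted p = 0.0127) held under both scalings. The transcription factor list of 23 genes also holds regulators of NF-kB such as Nfkbia and Nfkbiz. Of these 23 genes, 14 rose and 4 fell with LPS (median 1.30, all genes −0.40, with 14.2% of all genes higher). With LPS plus Sal-B against LPS 2 were higher and 8 lower (median −0.29, all genes −0.22), shares near the 10.5% and 31.8% of all genes, and the split was 6 and 5 at the same median.

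The 2 transcription factor list genes called higher with LPS plus Sal-B, named here after their values were seen, were Nfkbia and Stat3. Nfkbia, which encodes the inhibitor that holds NF-kB in the cytoplasm and is itself a target of NF-kB, stood at 911 and 899 FPKM with LPS plus Sal-B, 375 and 366 FPKM with LPS and 79.3 and 51.5 FPKM in control (1.29 ± 0.20 against LPS, limma, adjusted p = 0.00628). Stat3, a transcription factor of cytokine receptor signalling, averaged 10.5 ± 0.357 FPKM with LPS plus Sal-B, 6.10 ± 0.0235 FPKM with LPS and 7.04 ± 0.762 FPKM in control (SD, n = 2 each; 0.70 ± 0.11 against LPS, limma, adjusted p = 0.00600). Both calls held under both scalings, and the groups of LPS plus Sal-B and LPS did not overlap for either gene.

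Nfkbiz, a nuclear cofactor of NF-kB, stood at 29.2 and 29.8 FPKM with LPS plus Sal-B, 40.1 and 37.0 FPKM with LPS and 6.16 and 5.15 FPKM in control. Its fall against LPS (−0.38 ± 0.11, limma, adjusted p = 0.0399) did not pass at the same median (adjusted p = 0.309). Cebpb, a transcription factor that binds the Il1b promoter in macrophages, stood at 57.3 and 59.7 FPKM with LPS plus Sal-B, 119 and 124 FPKM with LPS and 40.5 and 21.7 FPKM in control (−1.04 ± 0.27 against LPS, limma, adjusted p = 0.0296, but 0.0592 at the same median).

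Of 11 genes listed as regulators of mRNA decay, stability or translation, 1 was higher and 4 lower with LPS plus Sal-B against LPS. With LPS against control 3 rose and 4 fell. The shares with LPS plus Sal-B were near those of all genes, 10.5% higher and 31.8% lower, and with LPS 14.2% of all genes were higher and 48.9% lower. Zfp36, or tristetraprolin, which binds AU-rich elements and promotes decay of cytokine transcripts, followed the course of the cytokines. It stood at 16.8 and 18.1 FPKM with LPS plus Sal-B, 72.4 and 78.5 FPKM with LPS and 14.2 and 20.8 FPKM in control. The LPS plus Sal-B and control ranges overlapped, and the fall against LPS (−2.05 ± 0.18, limma, adjusted p = 0.00203) held under both scalings.

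**Figure D5:**
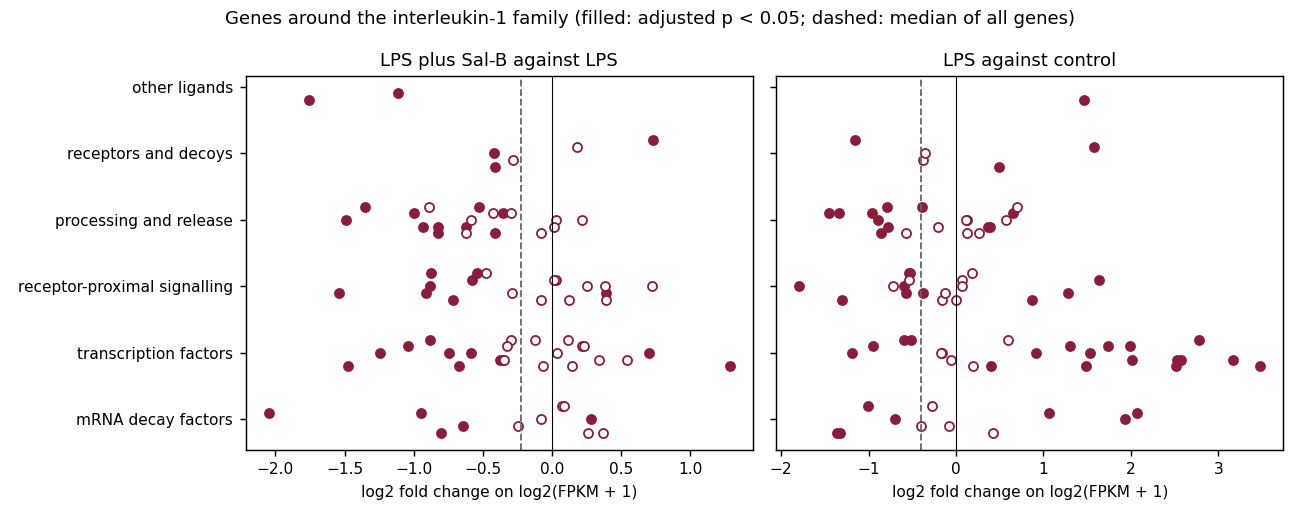
Log2 fold changes of the tested genes of 6 lists around the family, with LPS plus Sal-B set against LPS on the left and LPS set against control on the right. Filled points passed an adjusted p of 0.05, the dashed line is the median of all genes, and genes listed at 0 in both control libraries are left out of the right panel. The genes of the transcription factor list spread to the right with LPS, and the genes of processing and release lie mostly to the left of the dashed line with LPS plus Sal-B.

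The genes most like each member over the 6 libraries were found by the root mean square difference of centred log2(FPKM + 1) values among 6923 genes, with the 5 members left out of the ranking. Il1b was nearest to Csf2, at 0.19, before Ccl2, Ccl5, Cxcl2 and Il27, and Il1a to Ccl2, at 0.41, before Csf2, Urah, Cxcl2 and Isg15, while Il1a and Il1b, as members not ranked, differed from each other by 0.28, less than Il1a differed from Ccl2. Il1f6 was nearest to Il6, at 0.23, before Gm5483, AA467197, Ccl12 and Wfdc17. Il6 stood at 0.916 FPKM with LPS plus Sal-B, 11.5 FPKM with LPS and 0.0615 FPKM in control on average. Il1rn was nearest to Procr, at 0.42, then Tmem171, at 0.44, and Tnf, at 0.49, with Atf3 and Ms4a6d next. Il18 was nearest to Ppp1r15a, at 0.06, with Dmac1, AC125149.1, Timm8b and Rpl36al next, at 0.08 each. This measure is not relative to the size of the change, which was smallest for Il18. It describes 6 libraries that share their groups.

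Tested genes beside the members moved with them in some cases and against them in others. F830045P16Rik, 87.2 kb from Il1b, and Psd4, 16.1 kb from Il1rn, did not pass the expression filter and were not tested. Il1f9, beside Il1f6, had the directions of Il1f6 in both comparisons given above. Ckap2l, 2.40 kb from Il1a and needed for cell division, stood at 11.2 FPKM with LPS plus Sal-B, 6.93 FPKM with LPS and 37.7 FPKM in control on average. Its direction was opposite to that of Il1a in both comparisons (0.63 with LPS plus Sal-B against LPS, adjusted p = 0.00786, and −2.29 with LPS against control, adjusted p = 0.000147, limma). Pts, 26.1 kb from Il18, was lower with LPS than in control (−1.96, limma, adjusted p = 0.000458), while Il18 was higher. With LPS plus Sal-B against LPS Pts was not called (−0.40, limma, adjusted p = 0.0967). Sdhd, 14.5 kb from Il18 on the other side, was lower with LPS plus Sal-B than with LPS (−0.89, limma, adjusted p = 0.00208), as Il18 was. With LPS against control, however, Sdhd was lower (−0.24, limma, adjusted p = 0.0474), opposite to Il18. Timm8b, 22.1 kb from Il18 on the far side of Sdhd, is among the 5 genes most like Il18.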

How the data were processed

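RNA was extracted with Trizol, per the labels' protocols, which name TruSeq and KAPA stranded kits and either poly(A) selection or rRNA removal. Expression is in FPKM as the authors deposited it, and only genes with a group mean of at least 0.500132 FPKM were in the table. Per the submitters' processing notes, cutadapt, HISAT2 2.0.5, StringTie and GRCm38 were used, with options not given in the sources used here. No scaling between libraries is stated. Low values of single-transcript genes fell within 0.1 of whole-read steps in at most 43.1% to 65.6% of cases per library (20% by chance), so reads were not recovered and depth is unknown.

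Values were turned into log2(FPKM + 1). A gene was tested if 2 or more libraries reached 1 FPKM, which left 10014 genes. Group differences came from limma 3.58.1 (R 4.3.3; moderated, variance trend, all 3 groups in the model), two-sided, with Benjamini-Hochberg adjustment over all of them and a threshold of 0.05. Il1f9, Il33, Il18bp and, in the transcription factor list, Fos reached 1 FPKM only with LPS, and Irf4 only in control. Their calls rest on the group that passed the filter. The fit was tested on simulated data. All members, receptors and further ligands analysed are named, with genes from fixed lists and the 5 genes nearest to each member with a group mean of at least 5 FPKM, and neighbours within 200 kb. Members, lists and settings were chosen with earlier results of these data known. Promoter windows came from RefSeq and transcripts from GENCODE M21.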

Additional observations from a re-analysis of the deposited data

How the results depend on the processing

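Of 210 values from 14 alternatives for each of 15 member results, 185 kept their direction and side of the threshold. Every value for Il1a, Il1b and Il1f6 did so, except for LPS plus Sal-B against LPS with each treated pair averaged to 1 sample. That setting, which assumes that a lone sample varies like the control pair, gave, for LPS plus Sal-B against LPS, −3.35 for Il1a, −2.87 for Il1b, −2.92 for Il1f6, −2.13 for Il1rn and −0.72 for Il18 (adjusted p = 0.320 to 0.356) with 0 genes called by limma (1477 at an unadjusted p under 0.05), and for LPS against control 0.82 for Il18 (adjusted p = 0.0950) with 1581 genes called. It gave 4000 called genes for LPS plus Sal-B against control. Fewer samples remain in that setting.

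For LPS plus Sal-B against LPS, Il1rn was −2.34 at a pseudocount of 0.1, −2.02 at the same median and −1.88 after quantile normalization, and Il18 was −0.42 after quantile normalization, none passing the threshold. Leaving out 1 library at a time, Il1rn ran from −2.84 to −1.66 and Il18 from −0.83 to −0.62, and the number of genes called from 1043 to 6245 (4238 with all libraries), with 1043 and 1297 when LPS plus Sal-B replicate 2 or 3 was left out and 1866 and 1974 when LPS replicate 2 or 3 was. For LPS plus Sal-B against control, Il18 was 0.82 at the same median and 0.51 after quantile normalization, past the threshold, and ran from −0.045 to 0.22 without 1 library. Its sign turned when LPS plus Sal-B replicate 3 was left out (−0.013, adjusted p = 0.953) and when control replicate 2 was (−0.045, adjusted p = 0.690). Il1rn was 2.14 at the same median and 2.15 after quantile normalization, past the threshold, and ran from 0.64 to 2.42 without 1 library. The cause of these shifts was not tested.

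Same-numbered libraries did not deviate together (correlations of 0.00367 to 0.0348 over genes), so the numbers were not used as pairs. With the replicate number as a block, Il1rn in LPS plus Sal-B against control stayed at 1.53 with an adjusted p of 0.0216, and no other member's call changed. Depth being unknown, it cannot be said how many reads stand behind values near 0, such as those of Il1b and Il1f6 in control.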

Other observations

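Il1rn was the member that differed most between replicates, in the LPS plus Sal-B pair (log2 difference 1.18, replicate 2 higher) and in the control pair (1.78, replicate 2 higher), but not in the LPS pair (0.05). These values were singled out after they were seen. At least as large a difference was found in 22 genes with LPS plus Sal-B and in 36 genes in control, Il1rn included and the others with at least 5 FPKM in the pair, and 2 genes, Il1rn and Ube2v1, were in both sets.

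The ratio of Il1a to Il1b FPKM was 0.957 and 1.05 with LPS plus Sal-B and 1.41 and 1.37 with LPS. The pairs did not overlap. This ratio was not tested.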
